A study of Mus musculus with 9 samples.

Results

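The genes described here are the odorant receptor (OR) genes named Olfr828 to Olfr986, which lie on mouse chromosome 9. They were taken as every row of the deposited count table whose symbol is Olfr and a number in that range, without a pseudogene suffix. This gave 112 of the 1107 OR rows and of the 24421 gene rows in the table. RNA-seq had been performed on the whole main olfactory epithelium (MOE), the sensory lining of the nose, of Mus musculus labelled as strain C57BL/6 at postnatal day 14. The 3 genotypes came from a single mouse line made by CRISPR-Cas9 editing, in which TAAR enhancer 1, a noncoding element beside the trace amine-associated receptor (Taar) genes, was deleted. Wild type (WT) mice carried no deleted copy, heterozygous (het) mice carried the deletion on one chromosome and homozygous (homo) mice on both, and each genotype had 3 libraries from littermates. The age and strain are those of the labels, and the study's reporting summary describes a mixed C57BL/6J and 129 background and, for the enhancer 1 line, older mice, a difference that could not be settled here. No drug or transgene was named for any group.

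ORs are seven-transmembrane G protein-coupled receptors, and each mature olfactory sensory neuron (OSN) transcribes a single allele of a single OR gene out of the whole family. The level of an OR transcript in whole MOE therefore depends on how many neurons have chosen that gene and on how much RNA each of them holds, and these cannot be told apart in bulk tissue. The ORs of chromosome 9 are of class II, the large group that detects mostly hydrophobic airborne odorants, and lie far from the Taar cluster of chromosome 10. The comparison between genotypes asks whether their RNA changed when a Taar enhancer was removed.

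Library depth ran from 24583906 to 32631951 reads in genes, of which 4839 to 6208 fell on the 112 members. A count of 3 reads corresponds to between 0.0916 and 0.122 CPM (a gene's reads divided by the effective library size), which is the floor below which a level is not told from 0. No molecular identifiers were reported, so counting limits cover counting error only. The deletion was visible in the genes beside the enhancer, since Taar2 to Taar5 together held 227 to 337 reads in WT libraries, 158 to 176 in het libraries and 1 to 3 in homo libraries. Omp, the marker of mature OSNs, was abundant in every library at 3045 to 3549 CPM. One het library (replicate 1) and 2 homo libraries (replicates 2 and 3) held more vomeronasal receptor RNA than the rest, at 67.3 to 120 CPM against 14.6 to 17.3 CPM in the other 6, and values without these 3 libraries, which leave 1 homo library, are given beside the results that they move by over 1.5 times.

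The members formed 2 groups on the chromosome. In the GENCODE M21 annotation of GRCm38, 110 of the 112 symbols were found, all of them on chromosome 9. Cluster 1 held 30 members over chr9:18814728-20303599, from Olfr828 to Olfr873. Cluster 2 held 80 members over chr9:37745106-40190134, from Olfr874 to Olfr986. The other 2, Olfr899 and Olfr900, had no entry in either annotation used and no reads, so they are counted but not placed. Of the placed genes 107 were annotated as protein coding and 3 (Olfr908, Olfr915 and Olfr936) as polymorphic pseudogenes, which are intact in some strains and broken in others. Another 22 OR rows lie on the same chromosome under numbers outside the range and were not members.

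By the MOR family names that RefSeq lists as synonyms, the 110 placed members fell into 27 families, and no family had members in both clusters. MOR171 was the largest, with 27 genes between Olfr919 and Olfr985, followed by MOR162 with 10 and MOR165 and MOR224 with 8 each. Coding sequences, cut from the GENCODE transcripts, ran from 915 to 1012 bases with a median of 936. Across the 5995 pairs of members the median nucleotide identity was 58.2%. It was 74.1% for the 108 pairs of next neighbours along a cluster, 65.2% for other pairs of the same cluster and 56.9% for pairs from different clusters, of which the closest reached 60.4%. In all, 28 pairs were over 90% identical, and every one of them lay within a MOR family and within a cluster.

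The beginning of the coding sequence is shown for 3 genes of MOR171 that are among the 4 highest members by level, since they are near neighbours with similar sequence and different abundance. Capitals mark bases that differ from Olfr969. All lie on the plus strand of GRCm38, Olfr969 at chr9:39795377-39795436, Olfr970 at chr9:39819641-39819700 and Olfr972 at chr9:39873277-39873336, and the first 60 coding bases are given.
Olfr969: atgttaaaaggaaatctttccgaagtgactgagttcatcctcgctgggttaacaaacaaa
Olfr970: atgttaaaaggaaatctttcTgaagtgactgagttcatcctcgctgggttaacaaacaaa
Olfr972: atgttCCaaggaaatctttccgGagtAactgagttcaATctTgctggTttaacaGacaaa
Olfr970 differed from Olfr969 at 1 of these bases and Olfr972 at 9, and over the whole coding sequence Olfr969 and Olfr970 were 92.4% identical.

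Levels between genes are given as CPM per kilobase of exon (CPM per kb), with exon length from GENCODE M21, because the annotated exons of the members ran from 930 to 9598 bases. The annotation used for counting is not given in the sources used here, so exon length may differ from what was counted. Olfr969 (MOR171-7, chr9:39790945-39796635, plus strand) was the most abundant member. It held 292, 317 and 279 reads in the WT libraries, 286, 319 and 307 in the het libraries and 303, 326 and 293 in the homo libraries. Its level was 6.96 ± 0.69 CPM per kb (SD, n = 9), 2.5 times the next member and without overlap with any other member in any library. The 3 genotypes overlapped, and its log2 fold change in homo against WT was 0.13 ± 0.11 (SE, edgeR adjusted p = 0.778), and -0.0049 without the 3 vomeronasal-rich libraries.

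The next 9 members by level lay much closer together. Olfr972, 3 genes further along the same MOR171 stretch, was at 2.77 ± 0.53 CPM per kb, and Olfr857 (MOR146-8), the highest member of cluster 1, was at 2.003 ± 0.28. Olfr970, the direct neighbour of Olfr969, was at 1.99 ± 0.26, and so could not be ordered against Olfr857 within this spread. Olfr910 (MOR165-3) followed at 1.75 ± 0.33, Olfr957 (MOR171-12) at 1.71 ± 0.22 and Olfr965 (MOR171-28) at 1.57 ± 0.22. Olfr875 (MOR161-4) was at 1.44 ± 0.13, Olfr923 (MOR164-2) at 1.43 ± 0.17 and Olfr874 (MOR161-2) at 1.41 ± 0.25, all with n = 9. From Olfr857 down to Olfr874 each neighbour in the order differed by less than the larger of their SDs. Of these 10 genes 9 were in cluster 2 and 5 were of MOR171.

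The order depended on the division by length. By CPM alone Olfr969 was still first, at 11.1 CPM, but Olfr959 (MOR224-3) followed at 7.48 CPM and Olfr943 (MOR171) at 5.52 CPM, although they ranked 12th and 40th per kb, with annotated exons of 5650 and 8314 bases. These 2 genes are named after their values were seen. Of the 10 highest members per kb 6 were also among the 10 highest by CPM. The 10 members with the most reads took 25.4 to 27.6% of all member reads in each library, with 26.5 ± 0.6% in WT, 26.1 ± 0.6% in het and 26.5 ± 1.1% in homo mice (SD, n = 3 each).

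**Figure D1:**
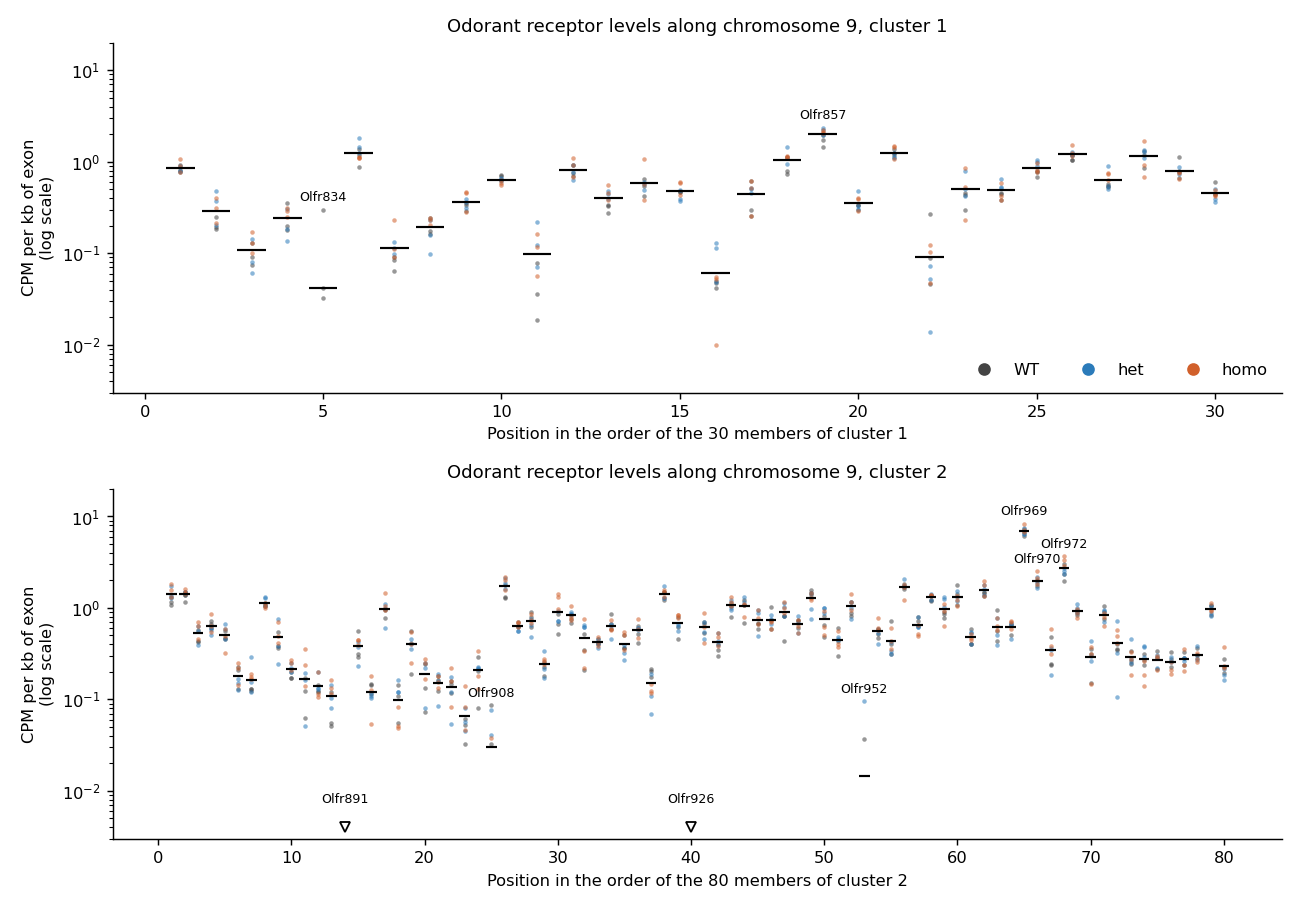
Level of each placed member, in CPM per kb of exon on a log scale, in the order of the genes along clusters 1 and 2 of chromosome 9. Points are the libraries with reads, coloured by genotype, bars are means over the 9 libraries and open triangles mark Olfr891 and Olfr926, which had no reads; Olfr969 at 6.96 CPM per kb stands above all other members.

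Most members lay at low levels, as the plot of levels in chromosomal order shows. The median was 0.494 CPM per kb over the 110 members with an exon length, with quartiles of 0.248 and 0.888. It was 0.481 in cluster 1 and 0.523 in cluster 2. The other OR genes had a median of 0.676, with 0.589 for those of chromosome 2, 0.686 for those of chromosome 7 and 0.505 for the 22 non-members of chromosome 9. Among larger families, the median was 0.912 in MOR224 and 0.732 in MOR171, and 0.198 in MOR162, 0.274 in MOR223 and 0.122 in MOR170. Next neighbours along a cluster differed by a median of 1.08 on the log2 scale (0.01 CPM per kb added), against 1.30 for all pairs within a cluster.

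A few members were at the limit of detection. Olfr891 (MOR170-9), Olfr926 (MOR171-8), Olfr899 and Olfr900 had no read in any of the 9 libraries. Olfr952 (MOR171-21) had 1 read in WT replicate 3 and 3 reads in het replicate 3, and Olfr908 (MOR165-2, one of the polymorphic pseudogenes) had 0 to 2 reads per library. Olfr834 (MOR153-2) had 7, 1 and 1 reads in the WT libraries and none in any het or homo library. These 3 had under 10 reads in all and were left out of the tests. The remaining 105 members were tested, and 105 members had reads in all 9 libraries. Without the filter on low counts Olfr834 gave adjusted p = 0.497 in homo against WT.

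Some near-identical members differed in level. At the median they lay closer than all pairs within a cluster, which differed by 1.30 on the log2 scale (0.01 CPM per kb added), where 1 is 2-fold. Of the 28 pairs over 90% identical, which involve 44 genes and of which 17 are next neighbours, 13 differed by more than 2-fold in CPM per kb and 5 by more than 5-fold, with a median of 1.83-fold. The 5 were Olfr955 and Olfr952, Olfr924 and Olfr926, Olfr832 and Olfr834, Olfr857 and Olfr859, and Olfr915 and Olfr905, of which the last 3 were chosen after their values were seen. The last 2 of these folds depend on exon length, since Olfr857 and Olfr859 had 1135 and 829 reads over exons of 2306 and 9598 bases, and Olfr915 and Olfr905 had 207 and 151 reads over 933 and 4429 bases. By reads alone 9 of the 28 pairs differed by more than 2-fold and 5 by more than 5-fold, and these were not all the same pairs as per kb. Per kb the same member was higher in all 9 libraries in 14 pairs, and by reads alone in 13. Reads that map to more than one place were not counted to any gene, 16.9 to 19.4% of reads per library, so a stretch shared by 2 genes counts for neither. Of all 100-base stretches of a member's transcripts, the share found in no other Olfr transcript was 100% for 66 members and under 90% for 4.

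The first 60 coding bases are shown for the 3 most similar pairs because they are the closest copies among the members, and in 2 of the pairs one copy had few or no reads. Capitals mark bases that differ from the first gene of each pair, and the build is GRCm38. Olfr955 lies at chr9:39470665-39470724 and Olfr952 at chr9:39427010-39427069, both on the minus strand. Olfr870 lies at chr9:20171510-20171569 on the minus strand and Olfr871 at chr9:20212351-20212410 on the plus strand. Olfr924 lies at chr9:38848116-38848175 and Olfr926 at chr9:38877178-38877237, both on the plus strand.
Olfr955: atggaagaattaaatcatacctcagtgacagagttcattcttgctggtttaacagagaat
Olfr952: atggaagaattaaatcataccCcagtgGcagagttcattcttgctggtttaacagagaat
Olfr870: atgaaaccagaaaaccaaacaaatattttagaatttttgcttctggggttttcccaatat
Olfr871: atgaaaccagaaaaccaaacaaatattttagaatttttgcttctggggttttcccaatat
Olfr924: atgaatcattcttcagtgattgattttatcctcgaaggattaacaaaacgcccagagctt
Olfr926: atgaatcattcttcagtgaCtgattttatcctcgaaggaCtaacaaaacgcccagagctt

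Olfr955 and Olfr952 were the closest pair, at 98.1% identity, and differed most among pairs in which both had reads. Olfr955 had 13, 22 and 31 reads in the WT libraries, 15, 15 and 21 in the het libraries and 17, 25 and 19 in the homo libraries, while Olfr952 had 4 reads over all 9. The levels were 0.432 and 0.0147 CPM per kb. These 2 genes also had the least unique sequence, 82.6% of 100-base stretches for Olfr955 and 71.2% for Olfr952, and the part of unassigned reads in the difference was not tested.

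Olfr924 and Olfr926 were 96.1% identical next neighbours of MOR171. Olfr924 had 573 reads in all, 51 to 75 per library, and Olfr926 had none, although 97.0% of its 100-base stretches were unique. Against a floor of 3 reads over the 9 libraries, Olfr924 was at least 59.2-fold higher per kb. Olfr832 and Olfr834 of MOR153 were 95.5% identical and fully unique by the same measure, with 265 reads against 9, or 0.246 against 0.0414 CPM per kb.

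In other pairs both copies were well above the limit of detection. Olfr870 and Olfr871, 97.5% identical and the same over their first 60 coding bases, had 636 and 322 reads. Per kb the order was the other way, at 0.634 and 1.15 CPM per kb, since Olfr871 has 1147 bases of annotated exon and Olfr870 has 4091. Olfr874 and Olfr875, which open cluster 2, were 95.6% identical and at 1.41 and 1.44 CPM per kb.

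**Figure D2:**
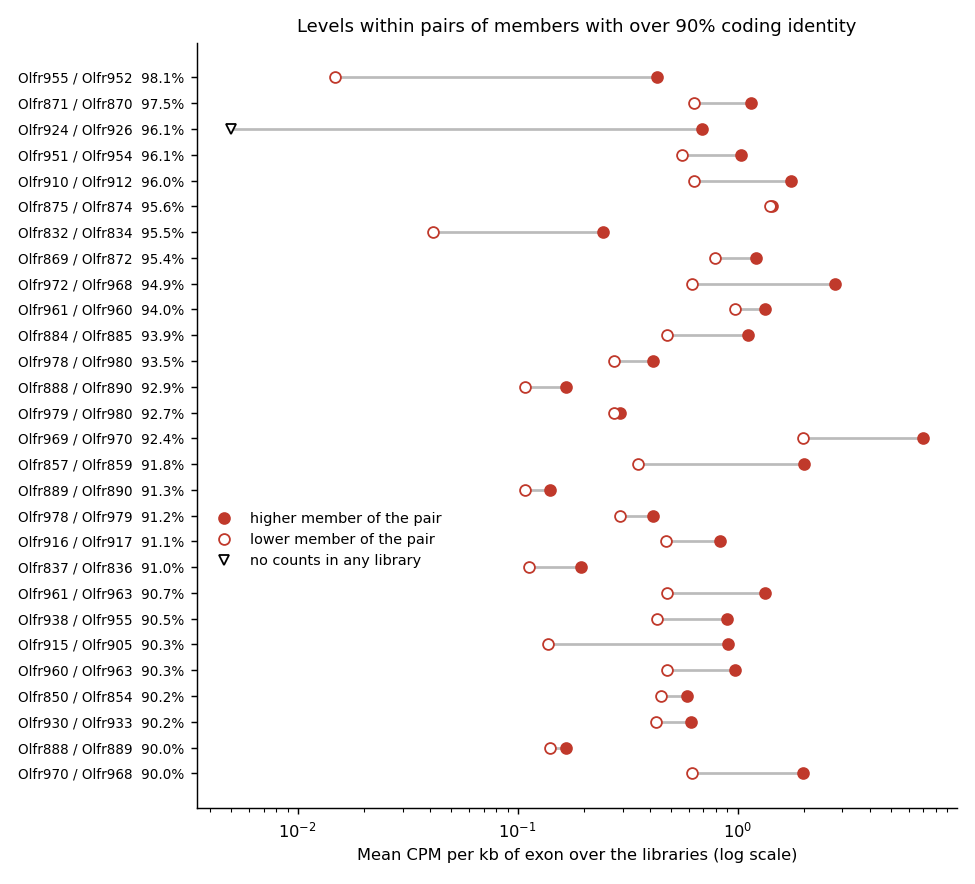
Mean level over the 9 libraries, in CPM per kb of exon on a log scale, of both members of each of the 28 pairs with over 90% coding identity, ordered by identity (given beside the names). Filled circles are the higher and open circles the lower member, and the triangle marks Olfr926, which had no reads; Olfr955 and Olfr952, at 0.432 and 0.0147, and Olfr924 and Olfr926 span the widest gaps.

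Upstream sequence was looked at for the members whose annotated start lies away from the coding start, because most OR models here begin at the coding sequence. A window of 250 bases was at hand for 94 members, but for 71 of them it ended within 50 bases of the coding start. Many of these also ended at an annotated GENCODE transcript start. The windows used were the 19 that ended within 50 bases of such a transcript start and not at the coding start. Known OR promoters often hold homeodomain sites and sites for Ebf factors. TAATTA, the homeodomain core, was found on either strand in 5 of the 19 windows (26.3%), against 4.84% of all promoter windows of the RefSeq table and 17.4% of the windows of other Olfr genes. TATAAA was found in 31.6% of the 19, against 12.4% of all windows and 38.7% of other Olfr windows. CCCNNGGG, the Ebf core, was in 1 of the 19 (5.26%), against 11.8% of all windows and 2.86% of other Olfr windows. The windows of other Olfr genes were not chosen by their start, so they are not the same kind as the 19. Over all 95 windows of the members, taken without that choice, TAATTA was in 24.2%, TATAAA in 44.2% and CCCNNGGG in 1.05%. The motifs TAATTA and TATAAA can overlap at their ends, and a match is a description of letters, not a site of binding.

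The windows are shown for Olfr868, one of the members with the smallest p-values below, for Olfr910, the fifth member by level, and for Olfr952, at the limit of detection. They come from RefSeq on GRCm38.p6, Olfr868 at chr9:20098376-20098625 and Olfr910 at chr9:38537632-38537881 on the plus strand and Olfr952 at chr9:39427149-39427398 on the minus strand, with TAATTA and TATAAA on either strand in capitals.
Olfr868: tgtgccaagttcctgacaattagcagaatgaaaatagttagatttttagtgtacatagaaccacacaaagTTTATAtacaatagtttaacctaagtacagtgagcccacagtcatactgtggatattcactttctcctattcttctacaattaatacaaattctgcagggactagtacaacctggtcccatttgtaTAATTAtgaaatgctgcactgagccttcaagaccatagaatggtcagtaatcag
Olfr910: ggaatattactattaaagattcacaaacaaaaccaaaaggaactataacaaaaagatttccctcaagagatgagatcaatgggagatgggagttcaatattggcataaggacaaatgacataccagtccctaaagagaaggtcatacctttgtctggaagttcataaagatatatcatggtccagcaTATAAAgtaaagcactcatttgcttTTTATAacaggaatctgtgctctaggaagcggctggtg
Olfr952: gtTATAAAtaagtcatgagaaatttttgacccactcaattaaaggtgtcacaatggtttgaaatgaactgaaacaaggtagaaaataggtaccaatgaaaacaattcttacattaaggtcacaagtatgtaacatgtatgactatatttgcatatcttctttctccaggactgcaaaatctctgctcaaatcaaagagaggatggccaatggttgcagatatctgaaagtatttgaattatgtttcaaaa
Olfr868 held 1 TAATTA, 54 bases from the start, and 1 TATAAA, 180 bases from it. Olfr910 held TATAAA at 2 places, the nearer 38 bases from the start, and Olfr952 held it once, 248 bases away. Neither held TAATTA. Distances run to the RefSeq start at the end of the window, and for Olfr910 the nearest GENCODE start lay 33 bases upstream of that.

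Within genotypes, the spread of a member's level between libraries was a little above what counting alone gives. Among the 47 members with at least 50 reads per library on average, the coefficient of variation (CV) between libraries of a genotype had a median of 15.3%, from 5.59 to 24.1%, while counting alone gives a median of 11.6%. For the 557 other OR genes at the same depth the medians were 15.2% and 10.5%. The lowest CVs were those of Olfr845 (5.59%), Olfr959 (6.20%) and Olfr875 (6.36%), under the 11.6% median of counting alone. A CV here rests on 3 libraries per genotype, and whether these genes are steadier than others was not tested. Olfr959 had 189, 222 and 177 reads in WT, 221, 214 and 203 in het and 216, 192 and 203 in homo libraries. The least steady were Olfr948 (24.1%), Olfr920 (21.3%) and Olfr876 (21.0%). Olfr948 (MOR171) was at 2.53, 1.83 and 1.24 CPM in WT, 1.92, 1.85 and 1.995 in het and 2.36, 1.54 and 1.66 in homo libraries, so its spread lay among mice of the same genotype.

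No member passed the test in any pair of genotypes. In homo against WT 0 of the 105 tested members had an adjusted p under 0.05 (edgeR quasi-likelihood test, Benjamini-Hochberg over all 20213 genes tested), against 0.0495% of all genes. At an unadjusted p under 0.05 there were 5 members (4.76%), all higher in homo mice, against 9.26% of all genes. Of the 965 other OR genes 5.08% were under 0.05, also mostly higher, with 42 higher and 7 lower. In het against WT 0 members passed, against 0.00495% of all genes. Of the members 5 (4.76%) had an unadjusted p under 0.05, 4 higher and 1 lower, against 3.25% of all genes. Other OR genes gave 2.69%, with 15 higher and 11 lower. In homo against het 0 members passed, against 0.114%, and 7 (6.67%) had an unadjusted p under 0.05, 4 higher and 3 lower, against 10.4%. Other OR genes gave 5.08%, with 39 higher and 10 lower. DESeq2 likewise called no member in het against WT and gave the members no adjusted p in the other 2 pairs. It put 3 members under an unadjusted 0.05 in homo against WT, 2 in het against WT and 0 in homo against het. The median SE of a member's log2 fold change was 0.23 in homo against WT, against 0.10 over all genes, so small differences were not detectable at this depth.

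The members as a group were slightly higher in homo than in WT mice. The median log2 fold change was 0.14, with 75 members higher and 30 lower, against 0.06 for 965 other OR genes, of which 593 were higher, and 0.00 for all genes. It was 0.22 in cluster 1 (22 of 29 higher) and 0.12 in cluster 2 (53 of 76 higher). ORs of chromosome 2 gave 0.11 (192 of 277 higher), ORs of chromosome 7 gave 0.02 (126 of 230) and the 20 tested non-members of chromosome 9 gave 0.01 (10 of 20). When libraries were scaled to the OR genes, which moves the median of all genes to -0.08, the member median was 0.07, with 62 of 105 higher. Without the 3 libraries rich in vomeronasal receptor RNA it was 0.10, with 64 of 105 higher, and 2 members were under an unadjusted 0.05.

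The summed level of the 112 members was 194, 190 and 191 CPM in the WT libraries, 195, 214 and 199 in the het libraries and 207, 215 and 203 in the homo libraries. All 3 homo libraries lay above all 3 WT libraries, and so did all 3 het libraries. The means were 192 ± 2.4, 203 ± 9.9 and 208 ± 6.2 CPM (SD, n = 3), 8.74% higher in homo and 5.73% higher in het than in WT mice. Without het replicate 2 the second difference was 2.78%. Scaled to the OR genes, the first difference was 3.09%. Without the 3 libraries rich in vomeronasal receptor RNA it was 7.84%. The other OR genes summed to 2886 ± 58 CPM in WT, 2906 ± 130 in het and 3005 ± 66 in homo mice (SD, n = 3).

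Cluster 1 summed to 47.5 ± 0.4 CPM in WT, 53.3 ± 4.9 in het and 53.9 ± 2.1 in homo mice, and cluster 2 to 144 ± 2.4, 149 ± 5.1 and 154 ± 5.5 (SD, n = 3). In cluster 1 the highest library of all was het replicate 2, at 58.9 CPM. As a share of all OR reads the members took 6.05 to 6.43% in WT, 6.36 to 6.60% in het and 6.30 to 6.69% in homo libraries, so WT and the other genotypes overlapped. The 95% Wilson interval of a single library's share was 5.91 to 6.20% in WT replicate 2, the lowest. It was 6.52 to 6.86% in homo replicate 2, the highest and one of the vomeronasal-rich libraries. For WT replicate 1 and homo replicate 1 the intervals overlapped, at 6.26 to 6.61% and 6.15 to 6.46%. Such intervals cover counting error only, not the spread between mice.

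**Figure D3:**
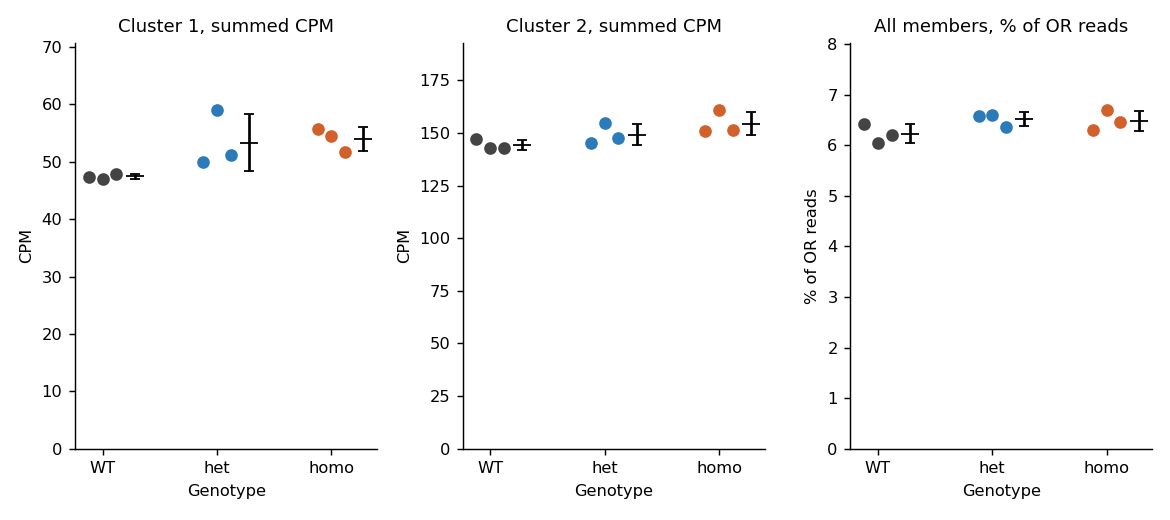
Summed CPM of the members of cluster 1 and of cluster 2, and the share of all OR reads taken by the 112 members, in each library by genotype. Points are libraries and the bar beside them is mean ± SD (n = 3); all homo points lie above all WT points in both sums, while the shares, 6.05 to 6.69%, overlap.

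Neuronal genes lay on the same side as the members in homo against WT. The summed level of 12 mature OSN genes (such as Omp and the transduction genes Gnal and Adcy3) was 12609 to 12738 CPM in WT and 13149 to 13767 in homo libraries, with 11 of 12 higher and 0 passing the test. That of 16 genes of receptor trafficking and choice (such as Rtp1, a chaperone of ORs, and Atf5, a factor of the OR feedback signal) was 5783 to 5823 against 6203 to 6326 CPM, with 14 of 16 higher and 0 passing. Atf5 had the smallest p, with a log2 fold change of 0.21 ± 0.05 (edgeR adjusted p = 0.237). The 7 sustentacular genes ran from 6703 to 7029 CPM in WT and from 6224 to 6608 in homo libraries, with 3 of 7 higher and 0 passing. The part of such shifts in the members' sum was not tested.

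The lists that follow held no called gene in homo against WT. The median log2 fold change was 0.07 for 7 immature neuron genes, -0.05 for 7 progenitor genes, -0.16 for 4 horizontal basal cell genes and -0.06 for 4 genes of respiratory cilia. It was -0.06 for 5 connective tissue genes and -0.10 for 4 tested blood and immune genes. Acsm4 and Nqo1, markers of the dorsal zone of the MOE, went opposite ways, at -0.21 ± 0.07 and 0.08 ± 0.05 (SE), with a median of -0.07. Gnao1 and Gnai2, G protein genes of vomeronasal neurons, gave 0.08. Trpc2 of the same list had under 10 reads in all and was not tested. Of 179 tested vomeronasal receptor genes 173 were higher in homo against WT. Their median log2 fold change was 4.37, with 118 at an unadjusted edgeR p under 0.05 and 0 passing the test. Homo replicates 2 and 3 held 120 and 69.7 CPM of these genes. Homo replicate 1 held 17.3 CPM, near the WT libraries at 14.6 to 16.1 CPM.

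Olfr849 (MOR151-1, cluster 1) had the smallest p in homo against WT. It was at 2.05, 1.71 and 2.01 CPM in WT, 2.39, 2.76 and 2.98 in het and 2.36, 2.76 and 3.40 in homo libraries. Both het and homo libraries lay above every WT library and overlapped each other. The log2 fold change was 0.57 ± 0.19 in homo (unadjusted p = 0.00893, edgeR adjusted p = 0.408) and 0.50 ± 0.19 in het mice (edgeR adjusted p = 1.00). Both comparisons use the same WT libraries. Without the 3 libraries rich in vomeronasal receptor RNA the first was 0.30.

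Olfr915 (MOR167-4) is one of the 3 polymorphic pseudogenes. It was at 0.482, 0.794 and 0.619 CPM in WT, 0.677, 0.870 and 0.676 in het and 0.916, 1.34 and 1.24 in homo libraries, so the homo libraries lay above all others. The log2 fold change in homo against WT was 0.85 ± 0.31 (edgeR adjusted p = 0.430), and it rested on 12 to 33 reads per library. Without the 3 vomeronasal-rich libraries it was 0.51.

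Olfr972 (MOR171-17), the second member by level, was at 3.89, 3.24 and 4.95 CPM in WT, 4.52, 4.12 and 3.89 in het and 4.69, 6.06 and 5.49 in homo libraries. The homo libraries lay above all het libraries but overlapped WT. Its log2 fold change was 0.43 ± 0.16 in homo against WT (edgeR adjusted p = 0.451) and 0.37 ± 0.16 in homo against het (edgeR adjusted p = 0.447). Without the 3 vomeronasal-rich libraries both were 0.23, and with vomeronasal receptor RNA as a covariate the first was 0.22. Its neighbour Olfr970 gave 0.17 in homo against WT, with an unadjusted p = 0.322.

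Olfr874 (MOR161-2), the first gene of cluster 2, was at 3.09, 3.48 and 2.82 CPM in WT, 3.42, 3.67 and 4.53 in het and 4.12, 4.80 and 3.44 in homo libraries, with overlap between all genotypes. Its log2 fold change in homo against WT was 0.39 ± 0.17 (edgeR adjusted p = 0.511). Olfr857 (MOR146-8) was the fifth member under an unadjusted 0.05 in that pair, at 0.32 ± 0.14 (edgeR adjusted p = 0.522). It was at 4.54, 3.97 and 3.32 CPM in WT, 5.41, 5.07 and 4.46 in het and 4.79, 5.16 and 4.84 in homo libraries, so homo and WT did not overlap.

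In het against WT all 5 members under an unadjusted 0.05 were in cluster 1, and all had an edgeR adjusted p = 1.00. Olfr846 (MOR149-3) was at 0.0803, 0.336 and 0.155 CPM in WT, 0.962, 0.529 and 0.304 in het and 0.705, 0.244 and 0.503 in homo libraries. The genotypes overlapped, and the log2 fold change of 1.56 ± 0.60 rested on 106 reads in all 9 libraries. It was 1.04 without het replicate 1 and 1.03 without the 3 vomeronasal-rich libraries, of which het replicate 1 is one. Olfr868 (MOR145-4) was at 2.85, 3.30 and 3.36 CPM in WT and 3.81, 4.20 and 4.40 in het libraries, which did not overlap, and at 3.42, 3.29 and 4.06 in homo libraries, which overlapped both. Its log2 fold change was 0.38 ± 0.15 in het and 0.18 in homo against WT, the latter 0.10 without the 3 vomeronasal-rich libraries. The others were Olfr857, at 0.34 ± 0.14, and Olfr862 (MOR146-1), the member that was lower, at -1.59 ± 0.74, or -0.55 without WT replicate 2.

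**Figure D4:**
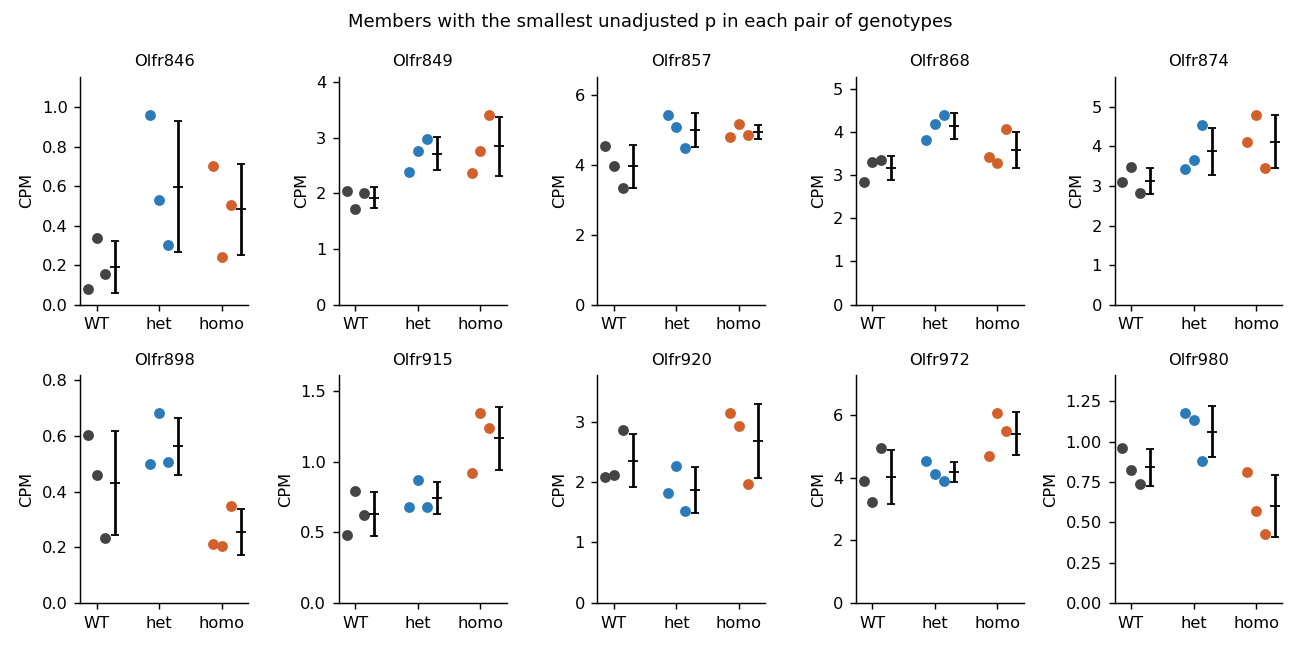
CPM in each library of the 10 members that had one of the 4 smallest unadjusted p-values in at least one pair of genotypes, with mean ± SD beside the points (n = 3). Vertical axes start at 0 and differ between genes. Olfr849, Olfr857 and Olfr915 have all homo points above all WT points, and none of the 10 passed the adjusted test.

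In homo against het the smallest p belonged to Olfr980 (MOR223-2). It was at 0.964, 0.825 and 0.735 CPM in WT, 1.18, 1.13 and 0.879 in het and 0.810, 0.569 and 0.426 in homo libraries, so homo lay below het without overlap and overlapped WT. Its log2 fold change was -0.80 ± 0.31 (edgeR adjusted p = 0.392), and -0.31 without the 3 vomeronasal-rich libraries. Olfr898 (MOR170-3) was at 0.602, 0.458 and 0.232 CPM in WT, 0.499, 0.681 and 0.507 in het and 0.211, 0.203 and 0.348 in homo libraries, again with homo below het, at -1.13 ± 0.47 (edgeR adjusted p = 0.422). Olfr920 (MOR165-6), one of the least steady members, was at 1.82, 2.27 and 1.52 CPM in het and 3.14, 2.93 and 1.97 in homo libraries, which overlapped, at 0.53 ± 0.22 (edgeR adjusted p = 0.431). The median of the members in this pair was 0.07, with 63 of 105 higher, against 0.05 for other ORs. Without the 3 libraries rich in vomeronasal receptor RNA it was 0.01, and scaled to the OR genes 0.02.

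The 2 clusters did not show the same balance in each pair, though no test of that difference was made. In het against WT the median was 0.09 over all members (62 of 105 higher), 0.16 in cluster 1 (18 of 29) and 0.05 in cluster 2 (44 of 76), against 0.00 for other ORs. In homo against het it was 0.07 in cluster 1 (15 of 29) and 0.08 in cluster 2 (48 of 76). Of the families with at least 5 tested members, MOR162 had 8 of 10 members higher in homo against WT, MOR165 6 of 7 and MOR171 17 of 25, while MOR223 had 1 of 5. None of their members passed the test.

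Some members had groups that did not overlap. In homo against WT 11 of the 105 tested members (10.5%) had all homo libraries above all WT libraries, against 7.46% of all genes. Olfr922 had all below, against 7.95%. Among the 965 other OR genes 6.94% lay above and 1.87% below, so a lean to higher values was also present there. In het against WT 12 members (11.4%) had all het libraries above, against 4.36%, and Olfr877 had all below, against 4.32%. For other OR genes the shares were 3.83% above and 2.49% below. In homo against het 4 members (3.81%) had all homo libraries above, against 6.41%, and 3 (2.86%) all below, against 7.67%. For other OR genes the shares were 5.7% above and 4.04% below. The 4 members above were Olfr915, Olfr924, Olfr972 and Olfr986, and the 3 below were Olfr835, Olfr898 and Olfr980. Olfr922, Olfr877 and Olfr835 were chosen after their values were seen. Each pair of these comparisons shares 1 genotype's libraries.

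**Figure D5:**
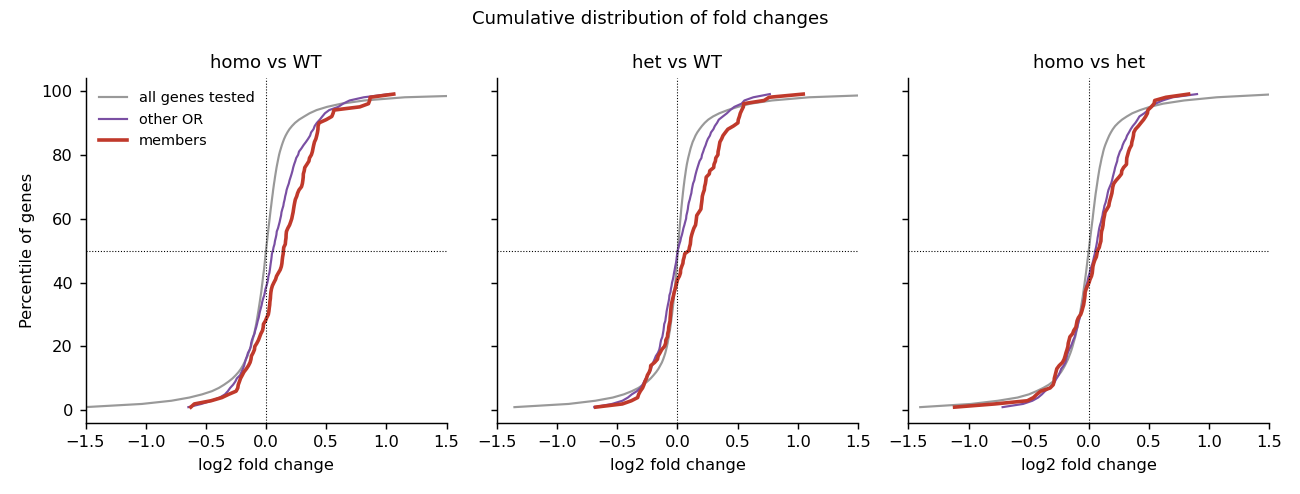
Cumulative distribution of log2 fold changes, shown as percentile of genes against log2 fold change, for the 105 tested members, 965 other OR genes and all 20213 genes tested, in each pair of genotypes. The member curve crosses the 50th percentile at 0.14, 0.09 and 0.07 and lies to the right of the curve of other ORs around the middle in homo against WT and het against WT.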

How the data were processed

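The authors made polyA-selected, strand-specific libraries from whole MOE. Per the labels and the submitters' processing notes, reads were trimmed with Trimmomatic 0.36 and mapped to GRCm38 (mm10) with HISAT2 2.1.0. The same notes name HTSeq 0.6.1p1 and the study names featureCounts as the counter; annotation and strand setting are not given in the sources used here. The authors deposited raw counts per gene, which were used, and a normalized signal, the count divided by a DESeq2 size factor, which only served as a check. The 5 summary rows were left out, and reads that fell in no gene were 21.6 to 22.4% of those the rows account for.

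Genes with at least 10 counts over the 9 libraries were tested with edgeR 4.0.16 (R 4.3.3), TMM scaling and genotype as the only term. All 9 libraries shared one fit, and a member was called at an adjusted p under 0.05. CPM uses TMM effective library sizes. Replicate numbers were not taken as pairs. Deviations of libraries with the same number correlated at -0.19 to 0.38, with 0.31 and 0.38 for het and homo replicates 2 and 3. Libraries with different numbers were not compared, so shared litters were not tested. The p-values measure the spread between 3 libraries per genotype. The fit was tested on simulated data. Identity was computed with edlib 1.3.9.post1 on coding nucleotides, since no protein table was at hand.

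Members, gene lists, tests and the rule for named genes were chosen with earlier results of these data known. Named were the 10 members highest per kb, the 3 lowest detected, the 4 with the smallest p in each pair, the 3 highest and lowest CV, the ends of each cluster, the 3 most similar pairs and unplaced members. Alternatives were DESeq2 1.42.0 and its size factors, scaling to OR genes, 2 other filters, only the 6 libraries compared, a replicate block, a vomeronasal covariate, and leaving out the 3 libraries with most vomeronasal receptor RNA or each library in turn. One marker list is not reported here.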

Additional observations from a re-analysis of the deposited data

How the results depend on the processing

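The count of members called was 0 under every alternative that gives an adjusted p. The number under an unadjusted 0.05 in homo against WT was 3 with DESeq2 and with scaling to OR genes, 8 without a filter, and 2 with the vomeronasal covariate and without the 3 libraries with most vomeronasal receptor RNA. In het against WT it was 2 with DESeq2, and in homo against het 0 with DESeq2. Leaving out each library in turn gave 4 to 8, 4 to 7 and 1 to 7 in the 3 pairs; WT replicate 3 gave 8 in the first, and het replicate 3 and homo replicate 2 gave 2 and 1 in the last. The median log2 fold change in homo against WT was 0.069 scaled to OR genes and 0.104 without the 3 libraries, in het against WT 0.057 with filterByExpr, and in homo against het 0.016 and 0.0094 for the same 2 settings as the first. Without each library in turn it ran from 0.10 to 0.19, 0.06 to 0.12 and 0.05 to 0.08, lowest without WT replicate 2, het replicate 2 and het replicate 3. The summed CPM differed by 3.09% in homo against WT scaled to OR genes, and by 6.95 to 10.1% without each library. By CPM 6 of the 10 highest members stayed. Causes were not tested. With the replicate block, which pairs libraries by number only, the count under an unadjusted 0.05 in het against WT was 9, and no call changed. Of the fold changes named, Olfr969 in homo against WT turned its direction, to -0.0049 without the 3 libraries. In the same setting Olfr849, Olfr915 and Olfr972 in homo against WT came to 0.30, 0.51 and 0.23, Olfr846 in het against WT to 1.03, and Olfr980 and Olfr972 in homo against het to -0.31 and 0.23. With the covariate Olfr972 in homo against WT came to 0.22, without het replicate 1 Olfr846 came to 1.04, and without WT replicate 2 Olfr862 came to -0.55. The smaller values of Olfr969, Olfr970 and Olfr868 in homo against WT also moved by over 1.5 times without single libraries, from 0.04 to 0.20, 0.05 to 0.27 and 0.08 to 0.24.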
